A study of Mus musculus with 4 samples.

Results

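The hair shaft keratins are the cysteine-rich type I and type II keratins that fill the cortex and cuticle of the growing hair. They were taken here as the genes Krt31, Krt32, Krt33a, Krt33b, Krt34, Krt35, Krt81, Krt84, Krt85 and Krt86, found by every probe set annotated to exactly 1 of these symbols. Of the 10 genes, 9 had a probe set, 1 each, and Krt85 was not analysed here. All 9 probe sets passed the filter on dim signal, among 27022 probe sets and 13489 named genes that did so.

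The study measured messenger RNA in sorted epidermal cells of mouse pups on the FVB background at postnatal day 4, 24 h after an injection of doxycycline. The induced pups were K14-rtTA/TRE-miR-203/K14-H2BGFP: a keratin 14 promoter drove the doxycycline-dependent activator rtTA, which switches on a miR-203 transgene behind its TRE element, and a second keratin 14 promoter drove a green fluorescent histone. The control pups were TRE-miR-203/K14-H2BGFP littermates, titled wild type, which carried the same miR-203 transgene and fluorescent histone without the activator. The groups therefore differed in rtTA as well as in miR-203, and these cannot be told apart. Each group had 2 biological replicates, each on its own Affymetrix array, and so small a number sets the precision of each value. The sources used here do not name the sorting gate.

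A hair shaft is built in order. Cells leave the dividing matrix at the base of the follicle, and as they move up they switch on one keratin pair after another, first in the matrix and lower cuticle, then in the mid cortex and last in the upper cortex, an order known mainly from the human follicle. Each filament pairs an acidic type I keratin with a basic type II keratin, and the filaments are embedded in keratin-associated proteins. The keratin 14 promoter is active in the basal layer of the epidermis and the outer root sheath, not in the hair cortex. The RNA switched on in the induced pups is named miR-203 in the labels; its 3p mature form in RefSeq is shown with the seed, bases 2 to 8, in capitals.
mmu-miR-203-3p: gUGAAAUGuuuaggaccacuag

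RefSeq promoter windows of 300 bases, 250 before and 50 after the annotated start, were at hand for 5 of the members in build GRCm38.p6. They are shown because 4 of them, all type I genes that are near neighbours on chromosome 11, share an arrangement of words. Capitals mark words known as targets of LEF1/TCF factors, the nuclear end of Wnt signalling (the letters CTTTG followed by AA, by AT, by TA or by TT), and of HOXC13, a homeobox factor known in human to activate hair keratin promoters (TTAATNAA, TTAATNAG, TTAATNGA, TTAATNGG, TTTATNAA, TTTATNAG, TTTATNGA or TTTATNGG), on either strand.
Krt32 (chr11:100088220-100088519, minus strand): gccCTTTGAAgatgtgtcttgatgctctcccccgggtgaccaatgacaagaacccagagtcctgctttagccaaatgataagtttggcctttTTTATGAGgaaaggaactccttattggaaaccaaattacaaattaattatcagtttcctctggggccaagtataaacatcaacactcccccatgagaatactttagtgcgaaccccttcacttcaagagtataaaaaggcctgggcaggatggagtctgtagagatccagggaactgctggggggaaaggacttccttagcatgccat
Krt31 (chr11:100050502-100050801, minus strand): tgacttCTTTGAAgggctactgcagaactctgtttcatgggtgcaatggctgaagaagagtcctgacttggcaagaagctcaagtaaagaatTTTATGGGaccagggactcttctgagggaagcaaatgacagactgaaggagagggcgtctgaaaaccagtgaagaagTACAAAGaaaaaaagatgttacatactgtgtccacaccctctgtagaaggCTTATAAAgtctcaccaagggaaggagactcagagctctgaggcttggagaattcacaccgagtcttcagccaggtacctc
Krt33b (chr11:100029819-100030118, minus strand): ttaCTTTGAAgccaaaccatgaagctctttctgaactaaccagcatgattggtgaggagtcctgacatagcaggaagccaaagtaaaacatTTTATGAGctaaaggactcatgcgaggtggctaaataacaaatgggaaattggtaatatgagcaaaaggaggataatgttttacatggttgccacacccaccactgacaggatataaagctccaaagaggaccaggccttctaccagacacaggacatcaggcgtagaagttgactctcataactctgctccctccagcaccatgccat
Krt34 (chr11:100041505-100041804, minus strand): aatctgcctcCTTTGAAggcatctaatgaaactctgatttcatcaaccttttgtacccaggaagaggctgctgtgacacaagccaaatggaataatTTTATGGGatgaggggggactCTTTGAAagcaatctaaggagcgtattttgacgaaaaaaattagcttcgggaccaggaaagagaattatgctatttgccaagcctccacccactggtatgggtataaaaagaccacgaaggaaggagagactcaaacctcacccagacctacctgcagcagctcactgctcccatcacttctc
Krt84 (chr15:101532771-101533070, minus strand): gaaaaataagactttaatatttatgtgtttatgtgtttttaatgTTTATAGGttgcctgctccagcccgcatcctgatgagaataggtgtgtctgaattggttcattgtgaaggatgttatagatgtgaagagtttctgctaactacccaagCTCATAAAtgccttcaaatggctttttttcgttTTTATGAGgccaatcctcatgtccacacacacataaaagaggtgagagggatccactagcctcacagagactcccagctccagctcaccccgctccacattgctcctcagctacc

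A LEF1/TCF word stood in 4 of the 5 windows and in 16.9% of all 32851 RefSeq windows of this length, and a HOXC13 word stood in 5 of 5 and in 18.9% of all. These words were also common beside the genes of related families: among inner root sheath keratins a HOXC13 word stood in 5 of 7 windows and a LEF1/TCF word in 2 of 7, and among keratin-associated protein genes a HOXC13 word stood in 26 of 51 and a LEF1/TCF word in 19 of 51. Among epidermal keratins each stood in 1 of 8. In each of the 4 type I windows the word CTTTGAA came first, beginning 247 bases before the start in Krt32 and Krt33b, 244 in Krt31 and 240 in Krt34. A HOXC13 word followed on the same strand at 158 bases before the start in Krt32 and Krt31, 159 in Krt33b and 154 in Krt34. The beginnings of both words lay 86 bases apart in Krt31 and Krt34, 88 in Krt33b and 89 in Krt32. The TATA word TATAAA, searched likewise, stood in all 5 windows, in 7 of 7 of the inner root sheath keratins, 42 of 51 of the keratin-associated proteins, 2 of 8 of the epidermal keratins and 13.6% of all windows. In the hair shaft keratins the one nearest the start began 47 to 29 bases before it in the 4 type I genes. The only TATA word of Krt84 lay far from the start, on the other strand at positions -206 to -201. In Krt31 a second HOXC13 word overlapped the TATA word, as did 1 of 3 HOXC13 words in the type II gene Krt84. No LEF1/TCF word was found in Krt84. A HOXC13 word that begins TTTATA holds TATAAA on the other strand, so both overlaps follow from the spelling of the words. The counts of HOXC13 and TATA words are therefore not fully separate, here and in the other families. The FOXN1 core GACGC was found in 1 of the 5 windows, that of Krt31, and in 27.2% of all. Near neighbours in a gene cluster share ancestry, so that their windows are not independent, and a word is a description of letters and not a measured binding site.

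**Figure D1:**
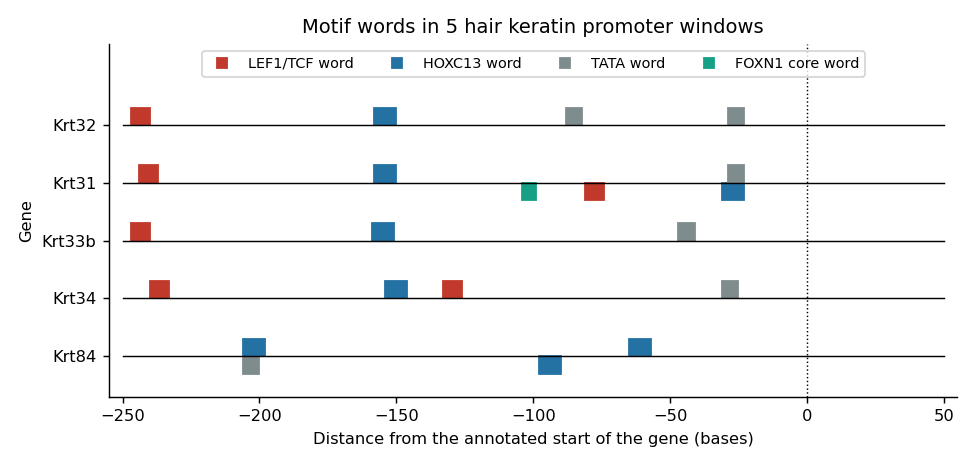
Motif words in 5 hair keratin promoter windows, by distance in bases from the annotated start (dotted line); boxes above a line are on the strand of the gene and boxes below on the other. In Krt32, Krt31, Krt33b and Krt34 a LEF1/TCF word is followed 86 to 89 bases on by a HOXC13 word. Krt84 has HOXC13 and TATA words only, and its TATA word is on the other strand, within a HOXC13 word.

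The 4 arrays had much the same distribution, with medians of 4.74 to 4.79 on the deposited log2 scale, on which 1 unit is a doubling and values ran from 2.09 to 14.6. Replicates correlated at 0.994 (induced) and 0.995 (control) across kept probe sets, against 0.991 to 0.993 between groups. The defining epidermal keratins were near the top of the range in every array, Krt14 at 14.0 and 14.0 in induced and 14.1 and 14.1 in control arrays and Krt1 at 14.1 and 14.0 against 14.2 and 14.2. Induced replicate 1 stood apart in sex-linked transcripts: the Y-linked gene Eif2s3y was at 9.38 there, against 2.72 in induced replicate 2 and 2.82 and 2.52 in the controls, and Xist, the RNA of the inactive X chromosome, was at 5.86, against 11.2, 10.6 and 10.8; both were named after their values were seen. The labels give no sex, and member values are therefore also given without that array.

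Hair shaft keratins had higher mean values in the induced arrays for all 9 measured members, by 0.64 to 0.96 log2 units. Their median difference was 0.85, a 1.81-fold higher signal, where the median over all kept genes was -0.00. Both induced arrays lay above both control arrays for 8 of the 9, where 20.1% of all kept genes were arranged so, and Krt35 was the exception. All 9 exceeded a 1.5-fold mean difference, as did 1.04% of kept genes. None of the 9 passed limma's test across all probe sets, which compares the group difference with the spread between replicates and adjusts the p-value for 27022 tests by Benjamini and Hochberg, at a threshold of 0.05. The same test called 0% of all probe sets. At an unadjusted p under 0.05, 8 of the 9 members were higher, against 4.40% of kept genes, and this count became 5 when control replicate 1 was left out and 6 when induced replicate 1 was. In these bulk samples more shaft cells and more keratin RNA per cell cannot be told apart.

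**Figure D2:**
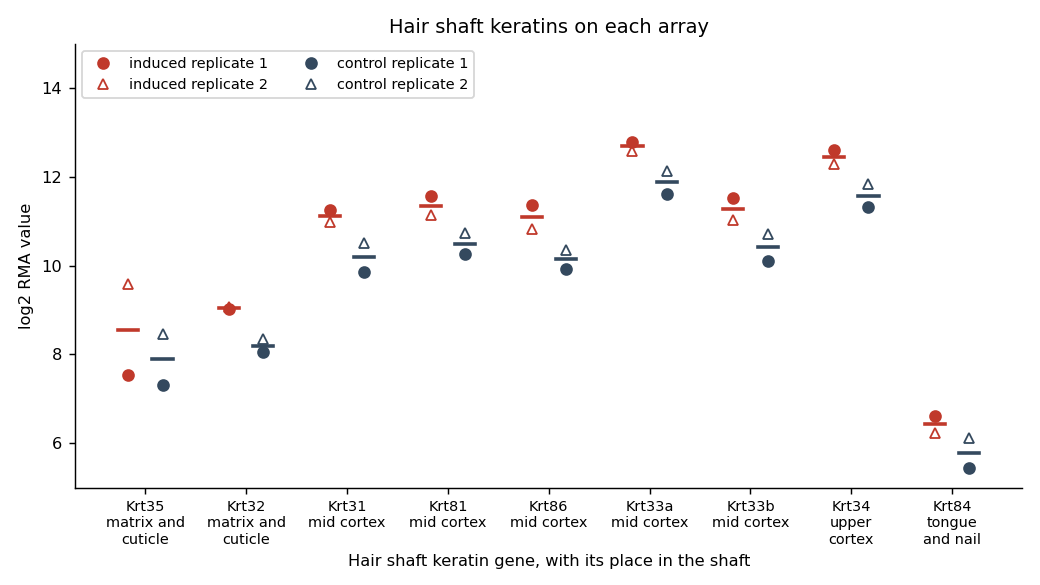
Log2 RMA value of each hair shaft keratin on each array, ordered by its place in the shaft; circles are replicate 1, triangles replicate 2, and bars the mean of 2 arrays. Both induced arrays lie above both control arrays for 8 genes, and Krt35 is split by replicate, with 9.58 in induced replicate 2 and 7.53 in induced replicate 1.

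Krt35 is a type I keratin and among the earliest of the shaft, switched on in the matrix, the lower cortex and the cuticle. Its log2 value was 7.53 and 9.58 in induced replicates 1 and 2, and 7.32 and 8.46 in control replicates 1 and 2. The groups overlapped, since induced replicate 1 lay below control replicate 2, and both arrays numbered 2 lay above both numbered 1. The mean difference was 0.67 ± 0.69 (SE, n = 2 and 2; limma adjusted p = 0.830). Leaving out induced replicate 1 gave 1.70, leaving out control replicate 1 gave 0.10 and leaving out induced replicate 2 gave -0.36, so that single arrays set its size and its sign. The induced replicates differed by 2.05 for Krt35, and of 13489 kept genes 2 had a larger excess of induced replicate 2 over induced replicate 1, namely Xist (5.33) and the fibril-associated collagen gene Col14a1 (2.29); these were named after their values were seen.

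Krt32, a type I keratin of the cuticle, the layer of scales around the cortex, had values of 9.02 and 9.06 in induced arrays and 8.05 and 8.36 in control arrays. Both induced values nearly coincided and the groups were parted by 0.66, the widest gap among the 9 members. Its difference was 0.84 ± 0.13 (1.79-fold; limma adjusted p = 0.188), with the smallest standard error of the family. With limma's variance prior following the mean level and made robust to outlying variances, Krt32 was called (adjusted p = 0.0336), the only one of the 9, where 0.252% of all probe sets were called higher.

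The mid cortex keratins are the bulk of the hair fibre, and the 5 measured here behaved alike. Krt31, a type I cortex keratin, had 11.3 and 11.0 in induced arrays, against 9.86 and 10.5 in control arrays. Krt33a had 12.8 and 12.6 in induced arrays, against 11.6 and 12.1 in control arrays. Its neighbour on chromosome 11, Krt33b, had 11.5 and 11.0 in induced arrays, against 10.1 and 10.7 in control arrays. For these 3 type I genes the highest array was induced replicate 1 and the lowest control replicate 1, with the other arrays in between and no overlap of the groups. The type II partners showed the same order: Krt81 had 11.6 and 11.1 in induced arrays, against 10.3 and 10.7 in control arrays. Krt86 had 11.4 and 10.8 in induced arrays, against 9.93 and 10.4 in control arrays. It had the largest difference of the family, 0.96 ± 0.22 (1.94-fold; limma adjusted p = 0.268), though its standard error covers the differences of the other cortex genes.

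Krt34, a type I keratin that in the human follicle appears late, in the upper cortex, had 12.6 and 12.3 in induced arrays, against 11.3 and 11.8 in control arrays. The order of its arrays was that of the mid cortex genes. Its difference was 0.87 ± 0.20 (1.83-fold; limma adjusted p = 0.274). Across the 6 cortex genes, Krt34 included, differences ran from 0.81 to 0.96 (1.76-fold to 1.94-fold) with adjusted p values of 0.268 to 0.362, and the gap from the lower induced to the higher control array ran from 0.30 to 0.49. Induced replicates of the 6 were 0.21 to 0.53 apart and control replicates 0.42 to 0.66 apart, so that for each of them the difference between groups exceeded the distance between replicates, by less than the probe-set-wide test requires. Krt34 lay within the range of the mid cortex genes. As the only upper cortex gene it cannot show whether differences change from mid to upper cortex.

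Krt84, a type II hair keratin known in mouse from the filiform papillae of the tongue and from nail, was listed with the shaft genes and had the smallest difference of the 9. It had 6.61 and 6.23 in induced arrays, against 5.45 and 6.13 in control arrays. Its groups did not overlap but lay only 0.11 apart. The difference was 0.64 ± 0.25 (1.55-fold; limma adjusted p = 0.476), and 0.30 without control replicate 1. Krt36, another keratin of tongue papillae and nail that is not a member, had 7.11 and 7.23 in induced arrays and 6.80 and 6.92 in control arrays, a difference of 0.31 ± 0.11. By type, the 6 type I members had a median difference of 0.85 (0.67 to 0.93) and the 3 type II members, their partners in the filament, 0.85 (0.64 to 0.96).

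Leaving out single arrays kept each of the 6 cortex differences above 0, from 0.56 for Krt33a when control replicate 1 was left out to 1.26 for Krt31 when control replicate 2 was. With induced replicate 1, in which Eif2s3y was high, left out, the differences were 0.79 for Krt31, 0.63 for Krt81, 0.70 for Krt86, 0.71 for Krt33a, 0.61 for Krt33b, 0.71 for Krt34, 0.45 for Krt84 and 0.86 for Krt32. The control arrays also differed from each other in 1 direction: control replicate 2 lay above control replicate 1 for 9 of 9 members, where 43.8% of kept genes did so.

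The order of the induced replicates divided the follicle genes. Induced replicate 1 lay above induced replicate 2 for all 6 cortex keratins and for Krt84, as for 46.4% of kept genes. It lay below for Krt35 and, with nearly equal values, for Krt32. The full order induced 1, induced 2, control 2, control 1 held for 7 of 9 members and for 4.78% of kept genes. That order was taken from the members' own values after they were seen, so these shares only describe it and test nothing. Of 37 kept keratin-associated protein genes, whose products crosslink the cortex keratins, 37 had the higher value in induced replicate 1. Of 7 inner root sheath keratins, which line the channel around the shaft, 7 had the higher value in induced replicate 2. The 6 cortex keratins, centred on their own means, averaged 0.63 and 0.25 in the induced arrays and -0.71 and -0.17 in the control arrays, the keratin-associated proteins 0.62 and 0.26 against -0.60 and -0.29, and the inner root sheath keratins 0.32 and 0.64 against -0.69 and -0.27. The difference between these families was not tested, and the induced replicates also differed in Xist and Eif2s3y.

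**Figure D3:**
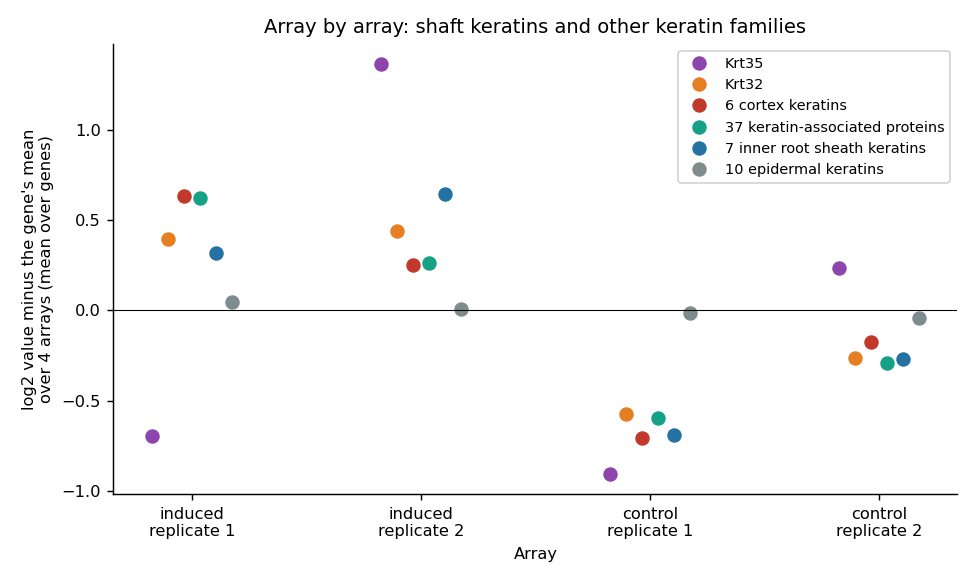
Log2 value minus the mean of the gene over the 4 arrays, averaged over the genes of a family, for Krt35, Krt32 and 4 keratin or keratin-associated families. Cortex keratins (0.63 and 0.25 in induced replicates 1 and 2) and keratin-associated proteins (0.62 and 0.26) take nearly the same values, inner root sheath keratins (0.32 and 0.64) have the other order, and Krt35 swings furthest.

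Induced replicate 2, in which Krt35 was highest, also had more signal than induced replicate 1 in several other lists. Signalling genes of the hair matrix were higher in induced replicate 2 than in induced replicate 1 for 10 of 11 kept genes, where 53.3% of kept genes were, while control replicate 2 was above control replicate 1 for 2 of the 11. Between the groups that list had a median difference of 0.00, with 6 genes higher and 5 lower in their means. In both induced arrays 3 were higher and 1 lower, where 20.1% and 19.3% of all kept genes were. At an unadjusted limma p under 0.05, 1 was higher, against 4.40% of kept genes. Shh, a ligand gene of that list, had 5.91 and 7.45 in induced and 7.05 and 6.52 in control arrays. The log2 values of 11 melanocyte markers summed to 82.1 and 87.6 in induced and 82.9 and 82.8 in control arrays, and those of 4 dermal fibroblast genes to 23.8 and 27.3 in induced and 25.6 and 26.3 in control arrays. Their part in the Krt35 values was not tested. The cortex keratins were higher in induced replicate 1, where these sums were lower, and whether the values are linked was not tested. All 8 immune markers were higher in induced replicate 1 than in induced replicate 2, with sums of 65.6 and 62.3 in induced and 65.1 and 63.1 in control arrays, and overlapped between the groups.

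Other genes of the shaft were read from lists, and 0 of their kept members passed limma's adjusted test. At an unadjusted limma p under 0.05, 3 of 3 further hair keratins, 4 of 12 transcription factors and 5 of 7 shaft proteins were higher and 0 were lower. Among all kept genes 4.40% were higher and 5.23% lower. The 3 keratins were Krt82, Krt83 and Krt36, the last being the keratin of tongue papillae and nail given above. The cuticle keratin Krt82 had 8.44 and 8.59 in induced arrays and 7.35 and 7.90 in control arrays (0.89 ± 0.19, 1.86-fold). Krt83, a type II cortex keratin between Krt86 and Krt84 on chromosome 15, had 10.7 and 10.4 in induced arrays and 9.34 and 9.90 in control arrays (0.94 ± 0.20, 1.91-fold). Krt81, Krt83 and Krt86 are close relatives in sequence, and whether their probes hybridise across them was not tested, so their 3 values may not be independent. Nor was it tested for the type I neighbours Krt31, Krt33a, Krt33b and Krt34, to which the same limit applies. Of 12 kept transcription factor genes of the shaft, 11 had the higher mean after induction, as did 49.6% of all kept genes, and 7 were higher in both induced arrays, as were 20.1%. Their median difference was 0.25. Foxn1, the factor lacking in nude mice, had 7.18 and 7.02 in induced arrays and 6.24 and 6.38 in control arrays (0.79 ± 0.11; limma adjusted p = 0.173). Hoxc13, whose words stand in the promoters above, had 6.59 and 7.31 in induced arrays and 5.89 and 6.26 in control arrays (0.88 ± 0.25; limma adjusted p = 0.362). Msx2, a homeobox factor of the matrix, had 7.32 and 7.70 in induced arrays and 6.58 and 7.05 in control arrays (0.70 ± 0.20). Lef1, a factor that reads the other word, had 7.06 and 7.62 in induced arrays and 7.40 and 7.39 in control arrays, with overlapping groups and a difference of -0.05 ± 0.19. These 4 values describe transcript levels and say nothing of binding.

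Among 7 kept shaft proteins 6 had a higher mean, as did 49.6% of all kept genes, with a median difference of 0.56. S100a3, a calcium-binding protein of the cuticle, had 11.5 and 11.6 in induced arrays and 10.3 and 10.7 in control arrays (1.01 ± 0.17, 2.02-fold). Lrrc15 had 8.50 and 8.39 in induced arrays and 7.09 and 7.39 in control arrays (1.21 ± 0.13; limma adjusted p = 0.158), and Padi3, an enzyme that converts arginine to citrulline in shaft and sheath proteins, differed by 1.01 ± 0.16. Tgm3 and Selenbp1 differed by 0.12 ± 0.20 and -0.05 ± 0.09. The 7 inner root sheath keratins had a median difference of 0.95, and 7 of 7 had both induced arrays above both control arrays. For the 37 keratin-associated protein genes the median was 0.92, with 35 separated in that direction. The hair shaft keratins, at 0.85 with 8 of 9, stood near both, where 20.1% of all kept genes were so separated.

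**Figure D4:**
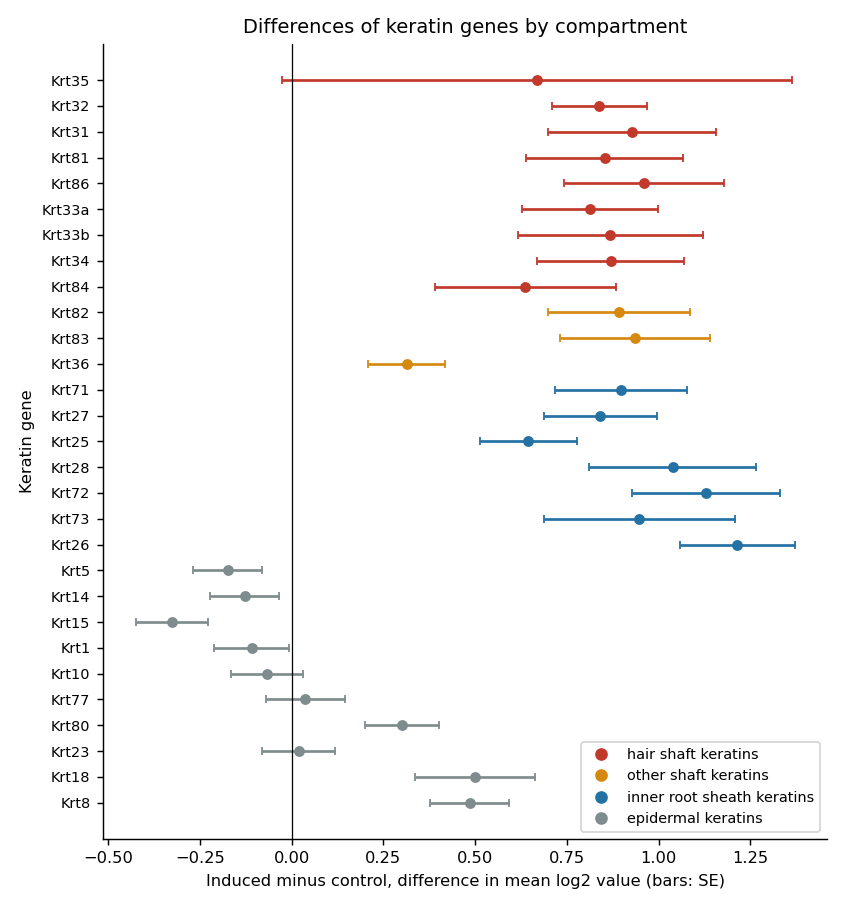
Induced minus control difference in mean log2 value of each keratin gene, with the standard error of limma's model as bars (n = 2 and 2). Hair shaft keratins lie between 0.64 and 0.96 and inner root sheath keratins between 0.64 and 1.21. The epidermal list lies between -0.33 (Krt15) and 0.50 (Krt18, a keratin of simple epithelia).

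Keratins of the epidermis had differences on both sides of 0. The 10 kept genes of that list had a median difference of -0.02, with 5 higher and 5 lower in their means and 3 higher and 5 lower in both induced arrays, where 20.1% and 19.3% of all kept genes were. Krt5 and Krt14, the pair of the basal layer, differed by -0.17 ± 0.09 and -0.13 ± 0.09, and Krt15 by -0.33 ± 0.10. Krt1 and Krt10, the pair of the layers above it, differed by -0.11 ± 0.10 and -0.07 ± 0.10, and Krt10 was named after its values were seen. These basal and upper layer keratins were the 5 genes lower in both induced arrays, so the median of the list hides their shared direction. Krt8 and Krt18, the pair of simple epithelia and Merkel cells, differed by 0.49 ± 0.11 and 0.50 ± 0.16 at low signal, and were named after their values were seen. Krt75, the keratin of the companion layer next to the inner root sheath, had 9.89 and 10.3 in induced arrays and 8.89 and 9.32 in control arrays, a difference of 0.98 ± 0.20. The companion list divided: its 6 kept genes had a median difference of 0.34, with 4 higher and 2 lower in their means. In both induced arrays 3 were higher, as were 20.1% of all kept genes. Krt6a and Krt6b, type II keratins of that list, differed by 0.66 ± 0.11 and 1.36 ± 0.36, and Krt16, a type I keratin, by -0.18 ± 0.14. The list is not confined to the companion layer. Markers of other cell types had median differences of 0.18 for 11 melanocyte genes, -0.01 for 4 dermal papilla genes, -0.16 for 4 dermal fibroblast genes, 0.05 for 5 sebaceous genes, -0.02 for 8 immune genes, -0.15 for 2 endothelial genes, -0.12 for 3 skeletal muscle genes and 0.42 for 2 red cell genes. These counts are of genes that passed the filter on dim signal. Genes with a probe set numbered 10 for papilla, 8 for fibroblasts, 6 for endothelium, 6 for muscle and 3 for red cells. The 2 kept red cell genes differed by 0.14 and 0.71, and Hba-a1 of that list fell below the filter. The part of these markers in the hair shaft keratin values was not tested.

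The genes whose values over the 4 arrays were most like the mean of the 9 members, by Euclidean distance between centred log2 profiles, were Krtap19-3 (distance 0.16), Krt82 (0.17), Klf2 (0.17), Krt83 (0.18), Cadm4 (0.20), Krtap9-3 (0.21), Vsig8 (0.21) and Krtap3-1 (0.21). Of the 8, 5 are keratins or keratin-associated proteins, Klf2 encodes a Krüppel-like transcription factor and Cadm4 a cell adhesion molecule. Vsig8 was 2.02-fold higher, with 9.24 and 9.20 in induced arrays and 7.96 and 8.45 in control arrays. The members themselves lay 0.12 (Krt33a) to 0.37 (Krt86) from that mean, apart from Krt35, which lay 1.55 away. Krt31 and Krt34 lay at 0.19, but Krt32 (0.22), Krt81 (0.28), Krt84 (0.30), Krt33b (0.32) and Krt86 lay farther away than all 8 genes named. The mean includes Krt35: it stood at 0.44 and 0.38 in the induced arrays, against 0.63 and 0.25 for the 6 cortex keratins. Likeness to it is therefore not likeness to most single members.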

How the data were processed

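Biotin-labelled RNA of each replicate went onto an Affymetrix array of its own, as the labels' protocols state. The authors deposited log2 values made with RMA, per the submitters' processing notes, which give no version; no chip definition is named in the sources used here. RMA corrects background, quantile normalizes the arrays and summarises the probes of a set, which hides any shift in total RNA. The table held 45101 probe sets and 0 columns of other samples. The 64 control probe sets were dropped, and those whose mean log2 value reached the 40th percentile (4.17) were kept. Names came from the platform annotation, updated through RefSeq's GRCm38 gene table, and the brightest kept probe set stood for a gene.

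Groups were compared by limma 3.58.1 (R 4.3.3; two-sided moderated test from lmFit and eBayes), with 2 residual and 3.82 prior degrees of freedom. Differences are induced minus control means, and folds are 2 to that power. The members and lists were chosen with earlier results of these data known. By rule the named genes were all members, genes of 4 hair lists, the first 4 genes of each further list, and the 8 genes nearest to the members' mean profile; genes named outside the rule are marked in the report as named after their values were seen. Alternatives were other filters, a second quantile normalization, median centring, another variance prior, probe set means, a replicate block and leaving out each array.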

Additional observations from a re-analysis of the deposited data

Results flagged for a closer look

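Eif2s3y, a Y-linked gene outside every list used here and named after its values were seen, had a log2 value of 9.38 in induced replicate 1, above its level in both control arrays (2.82 and 2.52) and in induced replicate 2 (2.72). The hair shaft keratin differences without that array are given with the results.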

How the results depend on the processing

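All 9 member differences were recomputed under 12 settings, 108 values in all. Of these, 106 kept their direction and stayed short of the threshold, 1 passed it (Krt32 with trend and robust, 0.84, adjusted p = 0.0336) and 1 reversed (Krt35 without induced replicate 2, where leaving out each array gave -0.36 to 1.70); the cause was not tested. Trend and robust called 126 probe sets and 1 member, and leaving out an array called 0 to 6 probe sets, 6 without induced replicate 2, where the spread of the lone array was taken from the other group. With the replicate number as a block, 0 probe sets and 0 members were called. Deviations of same-numbered arrays correlated at -0.10, which gives no sign that the numbers pair the arrays; the crossed pairing, added after seeing the data, called 0 probe sets and 0 members. The actin 3′ to 5′ signal excess was 1.05 to 1.16 on all arrays. Precision is limited by the number of arrays, 2 in each group.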
